A study of Mus musculus with 10 samples.

Results

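The mitotic and DNA replication genes examined here are 40 genes, taken by gene symbol from a table of 23080 genes of the mouse anterior fontanelle (AF) and split by phase into 24 genes of G2 and mitosis (G2/M) and 16 genes of S phase. All 40 were in the table and all 40 passed the filter on low counts, which left 16267 genes for testing. The list was drawn up by gene function, not by a threshold on measured values. The question was whether these genes, and S-phase genes against G2/M genes, differed in level when *Fgfr2* was deleted in the neural crest.

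The AF is the membranous gap between the paired frontal and parietal bones of the newborn skull. Total RNA of the AF at E18.5 was sequenced as 10 libraries, 5 labelled WT and 5 labelled Wnt1-Cre; Fgfr2fl/fl, referred to as control-labelled and mutant-labelled libraries with replicates 1 to 5 in each. In the mutant, a Wnt1-driven Cre acts on floxed *Fgfr2*, which encodes a fibroblast growth factor receptor, in the neural crest and its descendants. Cells of other origins in the dissected tissue, such as blood, the endothelium of vessels and mesoderm-derived bone, keep the receptor. The labels give no further allele for either group and do not say whether the controls carried Cre. The series gives 5 animals for each group, and the study calls the controls littermates without saying which libraries form a pair, so the p-values take no account of litter.

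A cell that divides copies its DNA in S phase and separates the copies in mitosis. The genes for the replication machinery are known to be switched on at the entry to S phase through E2F transcription factors, and those for the mitotic machinery later, in G2, through the MuvB complex with B-MYB and FOXM1, which acts at the cell cycle genes homology region (CHR). In the developing calvaria, dividing osteoprogenitors sit at the edges of the bones and in the suture mesenchyme, and FGF signalling is known to act on their proliferation. In bulk RNA of a tissue, fewer dividing cells and less RNA per dividing cell cannot be told apart.

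The sequences around the start sites are given first, since S-phase and G2/M genes are known to be controlled through different elements. RefSeq windows (GRCm38.p6) of 250 bases before to 50 bases after the start site were matched for 33 of 40 members, giving 15 windows for 13 S-phase genes and 20 windows for 20 G2/M genes. Both strands were searched for E2F words (TTTCCCGC, TTTCGCGC, TTTGCCGC or TTTGGCGC), for CHR words (TTTGAA or TTCGAA) and for the CCAAT box bound by NF-Y. An E2F word was in 7 of 15 S-phase windows (46.7%) and in 1 of 20 G2/M windows (5.00%), that of *Cdk1*, against 2.26% of all 32851 windows. A CHR word was in 16 of 20 G2/M windows (80.0%) and in 2 of 15 S-phase windows (13.3%), against 19.2% of all windows. A CCAAT box was frequent in both phases, at 85.0% of G2/M and 73.3% of S-phase windows, against 37.4% of all windows. A CHR word and a CCAAT box occurred together in 75.0% of G2/M windows, 13.3% of S-phase windows and 7.52% of all windows. A word match is a description of the sequence and was not tested as a binding site.

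**Figure D1:**
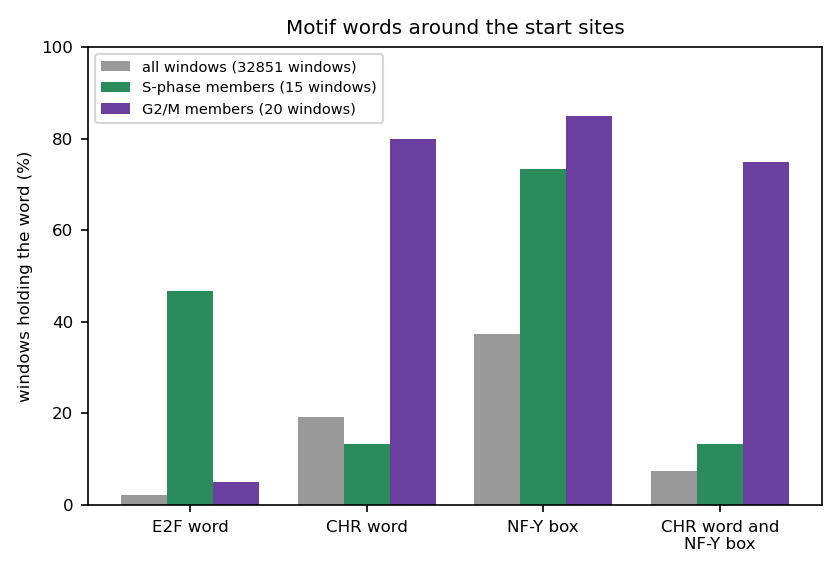
The bars give the percentage of promoter windows that hold each word, for all windows, S-phase members and G2/M members. E2F words were most frequent in the S-phase windows (46.7%) and CHR words in the G2/M windows (80.0%), while the NF-Y box (the CCAAT box) was frequent in both.

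The first set shows the 160 bases before the start site of 3 G2/M members, *Cdk1* (chr10:69352913-69353072, minus strand), *Cdc20* (chr4:118437344-118437503, minus strand) and *Kif11* (chr19:37376222-37376381, plus strand), because each holds a CHR word close to the start site and a CCAAT box upstream of it. Sequences are written 5′ to 3′ in the direction of transcription, and capitals mark E2F, CHR and CCAAT words on either strand. In *Cdk1* the E2F word began at base -131 and the CHR words at -71 and -15, counted from the start site.
Cdk1: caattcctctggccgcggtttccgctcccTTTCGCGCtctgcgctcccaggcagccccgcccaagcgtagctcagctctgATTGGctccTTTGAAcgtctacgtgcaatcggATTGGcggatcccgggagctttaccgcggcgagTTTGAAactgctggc
Cdc20: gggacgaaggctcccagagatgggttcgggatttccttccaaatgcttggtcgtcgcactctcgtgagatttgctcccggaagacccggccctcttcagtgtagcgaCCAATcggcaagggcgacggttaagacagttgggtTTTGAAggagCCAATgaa
Kif11: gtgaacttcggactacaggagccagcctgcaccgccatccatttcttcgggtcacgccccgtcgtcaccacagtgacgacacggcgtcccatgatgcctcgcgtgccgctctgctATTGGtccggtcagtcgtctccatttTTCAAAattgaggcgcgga

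The second set shows 2 S-phase members with E2F words, *Mcm5* (chr8:75109349-75109508, plus strand) and *Mcm6* (chr1:128359706-128359865, minus strand). The 2 E2F words of *Mcm5* overlap on opposite strands, as do 2 of the 3 in *Mcm6*.
Mcm5: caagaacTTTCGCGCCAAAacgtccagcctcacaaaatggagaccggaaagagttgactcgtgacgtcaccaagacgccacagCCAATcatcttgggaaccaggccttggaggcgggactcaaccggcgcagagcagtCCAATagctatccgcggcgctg
Mcm6: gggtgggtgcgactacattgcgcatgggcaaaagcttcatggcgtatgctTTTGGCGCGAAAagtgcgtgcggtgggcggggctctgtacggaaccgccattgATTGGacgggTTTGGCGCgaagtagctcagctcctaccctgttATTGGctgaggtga

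The third set shows *Tyms* (chr5:30073626-30073785, minus strand) and *Rrm2* (chr12:24708094-24708253, plus strand), 2 of the 3 members with the smallest p-values below. Their windows held no E2F word and no CHR word in these letters, and *Rrm2* had a single CCAAT box.
Tyms: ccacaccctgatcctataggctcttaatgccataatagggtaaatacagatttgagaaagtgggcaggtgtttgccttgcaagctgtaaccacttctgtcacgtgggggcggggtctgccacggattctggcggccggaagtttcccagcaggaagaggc
Rrm2: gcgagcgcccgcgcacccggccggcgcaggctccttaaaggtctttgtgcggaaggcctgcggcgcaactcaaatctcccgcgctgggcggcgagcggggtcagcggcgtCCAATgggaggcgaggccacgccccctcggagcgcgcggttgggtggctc

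The 10 libraries held 20774667 to 28515434 counts each, of which ribosomal RNA genes took 20.9 to 32.2% in the control-labelled and 18.7 to 33.6% in the mutant-labelled libraries. Total *Fgfr2* counts did not follow the labels: they were 199.5 ± 21.7 CPM (counts scaled to a fixed library total after TMM normalization) in the control-labelled and 318 ± 32.8 CPM in the mutant-labelled libraries (n = 5, SD), and the log2 fold change was 0.67 (adjusted p = 0.0487, edgeR's quasi-likelihood test with Benjamini-Hochberg adjustment). Over 18 alternatives *Fgfr2* stayed higher in the mutant-labelled libraries, with an adjusted p under 0.05 in 7 (range 4.0e-10 to 0.427). The groups did not overlap for *Fgfr2*. A gene count adds up the whole locus, so transcripts of intact and of recombined alleles cannot be told apart in this table, and each direction given here rests on the labels. Osteoblast markers summed to 54126 to 78494 CPM over all libraries and the AF connective tissue markers *Scx*, *Tnmd*, *Mkx* and *Matn4* to 148 to 278 CPM, whereas epidermis markers stayed at 3.08 to 6.36 CPM. By the same labels, the log2 fold change was above 0 for all 4 of these connective tissue markers and below 0 for all 10 osteoblast markers.

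The levels of the mitotic and replication genes did not separate the control-labelled from the mutant-labelled libraries. None of the 40 members had an adjusted p under 0.05, by edgeR's quasi-likelihood test or by DESeq2's Wald test, where 3 of all genes tested (0.0184%) passed with edgeR and 0.615% with DESeq2. The lowest adjusted p of a member was 0.634, for *Tyms*, and 37 of 40 members had an adjusted p over 0.8 by edgeR's test. At an unadjusted p under 0.05 the test found 3 members, or 7.50%, against 7.49% of all genes tested. The 3 were S-phase genes: *Rrm2* was higher and *Tyms* and *Ccne2* were lower in the mutant-labelled libraries, against 3.68% of all genes higher and 3.82% lower. None of the 24 G2/M members reached that level. The groups did not overlap in 1 member, *Tyms*, whose mutant-labelled values lay below, against 1.48% of all genes (0.781% with the mutant-labelled values above and 0.701% below).

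The 95% confidence intervals give a range for the change in the bulk level of each member taken singly, not for all members jointly. The interval of the log2 fold change, mutant-labelled minus control-labelled, lay within 0.5 of 0 for all 40 members. Over all genes tested it did so for 10765 of 16267. It lay within 0.3 of 0 for 28 of the members and included 0 for 37 of them. The outermost bounds were -0.42, for *Ccne2*, and 0.36, for *Cenpe*. The median log2 fold change was 0.013 over the S-phase members, -0.0075 over the G2/M members and 0.00073 over all genes tested. The median size of the change, regardless of sign, was 0.039 over the members and 0.091 over all genes, which were not matched for count level. The median coefficient of variation of the members was 8.61% among control-labelled and 11.3% among mutant-labelled libraries, against 10.8% and 12.4% over all genes. Each member rested on 81 to 3519 counts per library.

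**Figure D2:**
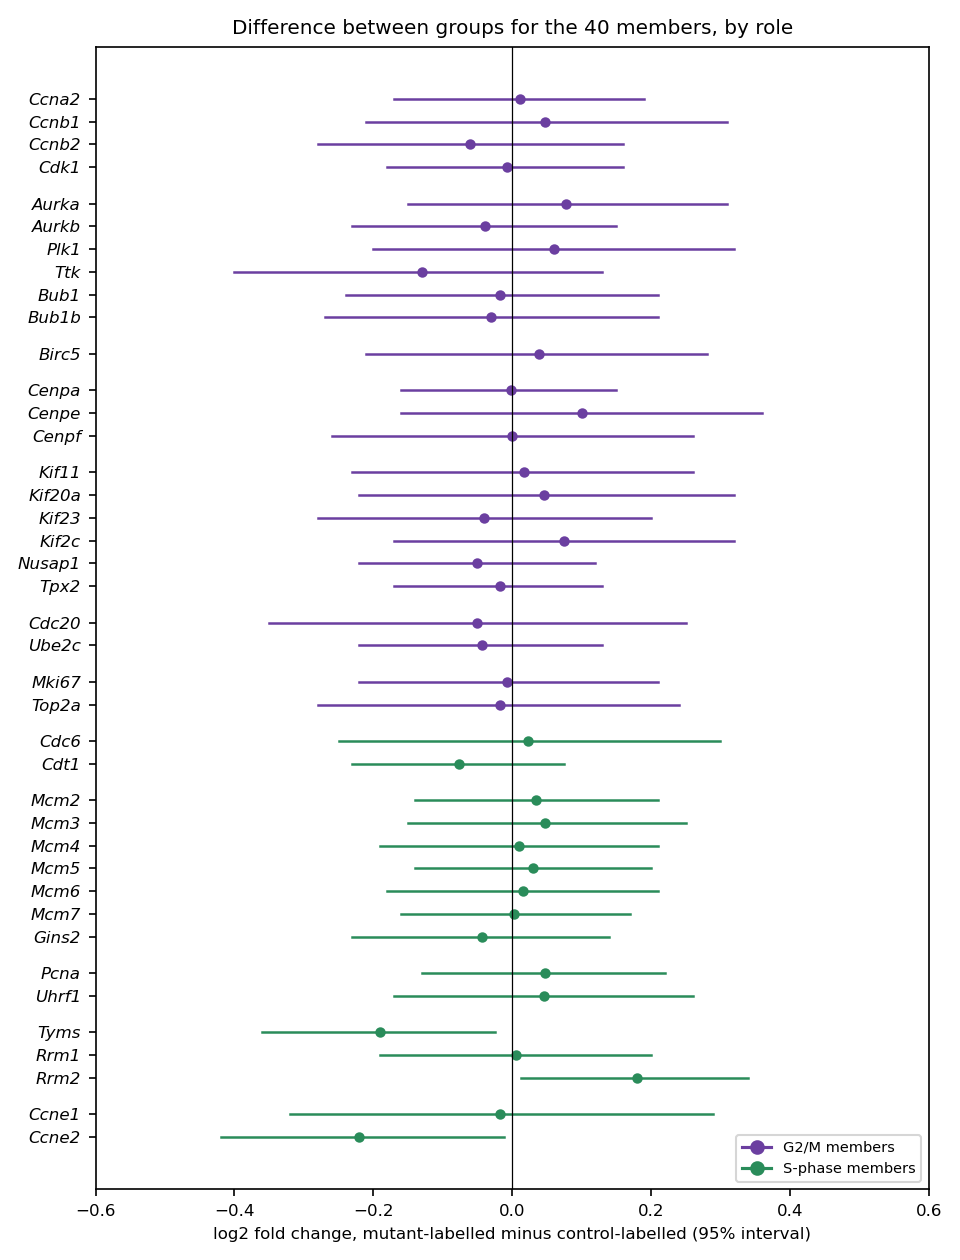
Each point is the log2 fold change of a member, mutant-labelled minus control-labelled, and each line its 95% confidence interval from edgeR's quasi-likelihood fit (n = 5 each), with S-phase and G2/M members shown separately. All 40 intervals lie within 0.5 of 0, and those of Tyms, Ccne2 and Rrm2 do not reach 0.

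Compared per kilobase of exon, the control-labelled level of the members ran from 0.785 CPM per kb for *Cdc6* to 13.9 CPM per kb for *Pcna*. After *Pcna*, the highest levels per kb were those of *Mki67* (11.3 ± 1.18, SD, n = 5), *Top2a* (8.89 ± 1.05), *Cdc20* (8.64 ± 1.51) and *Mcm4* (8.56 ± 0.529), of which the last 3 lay within 1 SD of each other. The lowest after *Cdc6* were *Ttk* (1.02 ± 0.148), *Tyms* and *Gins2* (1.54 each) and *Cenpf* (1.55 ± 0.220). Those of *Tyms*, *Gins2* and *Cenpf* lay within 1 SD of each other. Each exon length counts all annotated exons of a gene, so genes with long or rarely used exons appear lower.

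Among the cyclins and their kinase, CCNB1 binds CDK1 to drive entry into mitosis. *Ccnb1* (chromosome 13) stood at 12.3, 14.5, 11.3, 14.2 and 11.9 CPM in control-labelled replicates 1 to 5 and at 12.2, 11.6, 11.1, 15.3 and 16.1 CPM in mutant-labelled replicates 1 to 5. *Cdk1* stood at 21.9, 21.3, 19.0, 19.7 and 20.4 CPM in the former and at 20.8, 16.7, 21.4, 20.6 and 22.2 CPM in the latter. Both groups overlapped: for *Ccnb1* mutant-labelled replicates 4 and 5 were the highest of all 10 and replicate 3 the lowest, and for *Cdk1* mutant-labelled replicate 2 stood below the other 9. The log2 fold change was 0.048 for *Ccnb1* (95% interval -0.21 to 0.31) and -0.0081 for *Cdk1* (-0.18 to 0.16). *Ccna2*, whose cyclin acts in S phase as well as in G2, and *Ccnb2*, the second B-type cyclin, had values of 0.011 and -0.060.

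Of the mitotic kinases, *Plk1* encodes a kinase needed for centrosome maturation and spindle assembly. Its level was 8.78, 11.3, 8.63, 11.98 and 9.68 CPM in the control-labelled replicates and 9.66, 8.86, 10.7, 12.6 and 10.7 CPM in the mutant-labelled ones. *Aurka*, for the kinase of the spindle poles, was at 7.60, 8.23, 8.08, 6.46 and 6.51 CPM against 7.06, 7.51, 7.23, 8.94 and 8.21 CPM. *Ttk*, for the spindle checkpoint kinase MPS1, was at 5.71, 5.66, 4.0, 5.11 and 4.61 CPM against 4.92, 4.17, 4.66, 4.85 and 4.33 CPM. In all 3 the ranges overlapped, and for *Ttk* the control-labelled libraries held both the highest and the lowest value. *Ttk* had the smallest p of the G2/M members, with a log2 fold change of -0.13 (95% interval -0.40 to 0.13, adjusted p = 0.841 by edgeR's test), while *Plk1* and *Aurka* gave 0.060 and 0.078. The other kinases, *Aurkb* of the chromosomal passenger complex and the spindle checkpoint genes *Bub1* and *Bub1b*, lay between -0.039 and -0.018.

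The survivin gene *Birc5*, a partner of Aurora B in the chromosomal passenger complex, was at 9.93, 9.98, 10.7, 10.7 and 11.7 CPM in the control-labelled and at 10.1, 9.62, 9.12, 13.5 and 12.1 CPM in the mutant-labelled libraries. *Cenpa*, for the histone variant that marks centromeres, was at 13.5, 14.5, 14.0, 13.9 and 12.5 CPM against 13.6, 12.7, 13.01, 13.7 and 15.3 CPM. *Cenpe*, for the kinetochore motor that moves chromosomes to the spindle equator, was at 20.1, 16.4, 17.0 and 22.4 CPM in control-labelled replicates 2 to 5, with replicate 1 as the median, against 17.6, 17.0, 19.3, 23.8 and 23.6 CPM. Mutant-labelled replicates 4 and 5 were the highest libraries for *Birc5* and *Cenpe*, and replicate 5 for *Cenpa*, with the rest of the mutant-labelled values inside or below the control-labelled range. The log2 fold changes were 0.038, -0.0016 and 0.10, with that of *Cenpe* bounded by -0.16 and 0.36, and the third kinetochore gene, *Cenpf*, gave -0.00061.

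Of the spindle genes, *Nusap1*, for a microtubule bundling protein, was at 16.0, 17.9, 14.3, 16.9 and 16.4 CPM in the control-labelled and at 14.7, 14.4, 15.9, 16.4 and 17.4 CPM in the mutant-labelled libraries. *Kif2c*, for the microtubule depolymerase MCAK, was at 8.38, 8.75, 8.04, 8.17 and 8.03 CPM against 8.64, 6.68, 8.17, 9.75 and 10.3 CPM. The control-labelled values of *Kif2c* were close together (SD 0.300), and the mutant-labelled ones spread to both sides of them (SD 1.43). The log2 fold changes of *Nusap1* and *Kif2c* were -0.051 and 0.074, and those of *Kif11*, *Kif20a*, *Kif23* and *Tpx2*, for 3 spindle and midzone kinesins and a spindle assembly factor, lay between -0.040 and 0.046.

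*Cdc20*, for the activator of the anaphase-promoting complex, was at 13.9, 20.1, 13.1, 17.6 and 16.0 CPM in the control-labelled and at 13.5, 12.6, 15.6, 18.7 and 17.5 CPM in the mutant-labelled libraries. The control-labelled range spanned nearly all of the mutant-labelled one, and the log2 fold change was -0.051 (95% interval -0.35 to 0.25). *Ube2c*, for the ubiquitin-conjugating enzyme of that complex, gave -0.043.

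*Mki67* and *Top2a*, the most abundant mitotic members by count, encode the proliferation marker Ki-67, which coats mitotic chromosomes, and topoisomerase II alpha, which untangles DNA. *Mki67* (7:135689784-135716361, GRCm38) was at 110.2, 121, 95.2, 114 and 127 CPM in the control-labelled and at 113, 89.9, 112, 124 and 125 CPM in the mutant-labelled libraries. *Top2a* was at 75.3, 88.1, 66.0, 83.2 and 88.0 CPM against 70.7, 61.3, 84.4, 96.1 and 83.4 CPM. In both genes mutant-labelled replicate 2 was the lowest library and control-labelled replicate 3 the next, and the other 8 were mixed between the groups. The means of *Mki67* were 113 ± 11.9 and 113 ± 14.2 CPM (n = 5, SD), and the log2 fold change was -0.0068 with a 95% interval of -0.22 to 0.21 (adjusted p = 0.993, edgeR's test). *Top2a* gave -0.017 (-0.28 to 0.24).

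Before replication, CDC6 and CDT1 load the MCM helicase onto origins. *Cdc6* was at 3.56, 4.22, 3.44, 4.70 and 4.61 CPM in the control-labelled and at 4.13, 3.74, 4.02, 4.38 and 4.59 CPM in the mutant-labelled libraries. *Cdt1* was at 15.9, 17.8, 15.4, 16.7 and 16.1 CPM against 15.2, 14.5, 16.1, 14.6 and 17.3 CPM. All mutant-labelled values of *Cdc6* fell inside the control-labelled range, and 3 of those of *Cdt1* fell below it. The log2 fold changes were 0.023 (95% interval -0.25 to 0.30) and -0.076 (-0.23 to 0.075).

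The helicase is a ring of 6 subunits, MCM2 to MCM7, all among the members, and the GINS complex holds it in its active form. *Mcm2* was at 24.5, 30.0, 24.0, 26.5 and 29.9 CPM in the control-labelled and at 28.3, 23.9, 29.5, 28.5 and 28.1 CPM in the mutant-labelled libraries. *Mcm5* was at 22.7, 23.8, 20.96, 22.0 and 20.96 CPM against 21.3, 19.2, 22.3, 24.6 and 25.4 CPM. Mutant-labelled replicate 2 was the lowest library for both, and the 2 groups overlapped. The 6 *Mcm* genes gave log2 fold changes of 0.0023 to 0.048 and *Gins2* one of -0.044, none with an interval that left 0 out. When only library size was used, the median of all genes moved from 0.00073 to -0.038, and the sign of 5 of the 6 *Mcm* values (all but *Mcm3*) turned with that common shift.

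At the replication fork, *Pcna* encodes the sliding clamp and *Uhrf1* the factor that recruits the maintenance DNA methyltransferase. *Pcna* was at 31.6, 32.3, 36.1, 34.9 and 32.2 CPM in the control-labelled and at 33.9, 31.0, 30.6, 37.5 and 39.7 CPM in the mutant-labelled libraries. *Uhrf1* was at 19.7, 22.9, 22.2, 21.6 and 22.0 CPM against 24.1, 16.9, 24.4, 24.5 and 22.0 CPM. Mutant-labelled *Uhrf1* values lay above all control-labelled ones in replicates 1, 3 and 4 and below them in replicate 2. The log2 fold changes were 0.047 (95% interval -0.13 to 0.22) for *Pcna* and 0.046 (-0.17 to 0.26) for *Uhrf1*. Without mutant-labelled replicate 2, *Uhrf1* reached an unadjusted p under 0.05 with a log2 fold change of 0.14.

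The genes of nucleotide synthesis held 2 of the 3 members with an unadjusted p under 0.05, in opposite directions. *Tyms* (5:30058202-30073617, GRCm38) encodes thymidylate synthase, which makes dTMP. It was at 8.82, 9.71, 9.82, 9.93 and 8.75 CPM in the control-labelled and at 7.89, 8.63, 7.75, 8.34 and 8.61 CPM in the mutant-labelled libraries. Every mutant-labelled value lay below every control-labelled one, the closest pair being 8.63 and 8.75 CPM. The means were 9.41 ± 0.573 and 8.24 ± 0.406 CPM (SD, n = 5 each), and the log2 fold change was -0.19 ± 0.0755 (SE; 95% interval -0.36 to -0.025). Its unadjusted p was 0.0275 and its adjusted p 0.634 by edgeR's quasi-likelihood test. The two-sided exact permutation test of *Tyms* alone gave 0.00794, the smallest p that 5 libraries against 5 allow, not adjusted for the other genes.

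Ribonucleotide reductase, which makes the deoxyribonucleotides, is built from the subunits encoded by *Rrm1* and *Rrm2*. *Rrm2* (12:24708241-24714146, GRCm38) was at 17.5, 18.1, 15.3, 17.5 and 16.9 CPM in the control-labelled and at 17.0, 17.8, 21.5, 19.9 and 20.1 CPM in the mutant-labelled libraries. Mutant-labelled replicates 3, 4 and 5 stood above all control-labelled ones, and replicates 1 and 2 lay among them. The means were 17.0 ± 1.05 and 19.3 ± 1.81 CPM (n = 5, SD), and the log2 fold change was 0.18 ± 0.0754 (SE; 95% interval 0.013 to 0.34). The unadjusted p was 0.0371 and the adjusted p 0.649 by edgeR's test, and the two-sided exact permutation p was 0.0714. The count of *Rrm2* was not a whole number in any of the 10 libraries, and how the authors divided such reads is not stated. Its partner *Rrm1* gave 0.0050 (-0.19 to 0.20).

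Cyclin E, encoded by *Ccne1* and *Ccne2*, activates CDK2 at the entry to S phase. *Ccne2* (4:11191351-11204779, GRCm38) was at 7.12, 7.55, 6.93, 6.62 and 7.02 CPM in the control-labelled and at 6.59, 5.45, 5.99, 5.45 and 6.84 CPM in the mutant-labelled libraries. Mutant-labelled replicate 5 alone exceeded the lowest control-labelled value. The means were 7.05 ± 0.335 and 6.06 ± 0.644 CPM (n = 5, SD), and the log2 fold change was -0.22 ± 0.0944 (SE; 95% interval -0.42 to -0.011). The unadjusted p was 0.0405 and the adjusted p 0.653 by edgeR's test, and the two-sided exact permutation p was 0.0159. Of its exon bases 17.4% are shared with *Ints8* on the opposite strand. *Ccne1* was at 6.41, 6.83, 4.51, 4.90 and 6.89 CPM against 5.99, 4.93, 6.08, 5.70 and 6.54 CPM, with a log2 fold change of -0.017 (-0.32 to 0.29), and its mutant-labelled values all lay inside the control-labelled range.

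The 3 unadjusted calls did not all hold under other settings. Over 18 alternatives *Tyms* kept an unadjusted p under 0.05 in 10, *Rrm2* in 10 and *Ccne2* in 8, each with the same sign in all 18, and their adjusted p-values ranged from 0.551 to 0.951. DESeq2's Wald test kept *Rrm2* only, with unadjusted p-values of 0.0324 for *Rrm2*, 0.0538 for *Tyms* and 0.0625 for *Ccne2*. No member had an unadjusted p under 0.05 by edgeR's test without control-labelled replicate 3 or without mutant-labelled replicate 3. The same held when libraries of equal replicate number were fitted as a block.

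**Figure D3:**
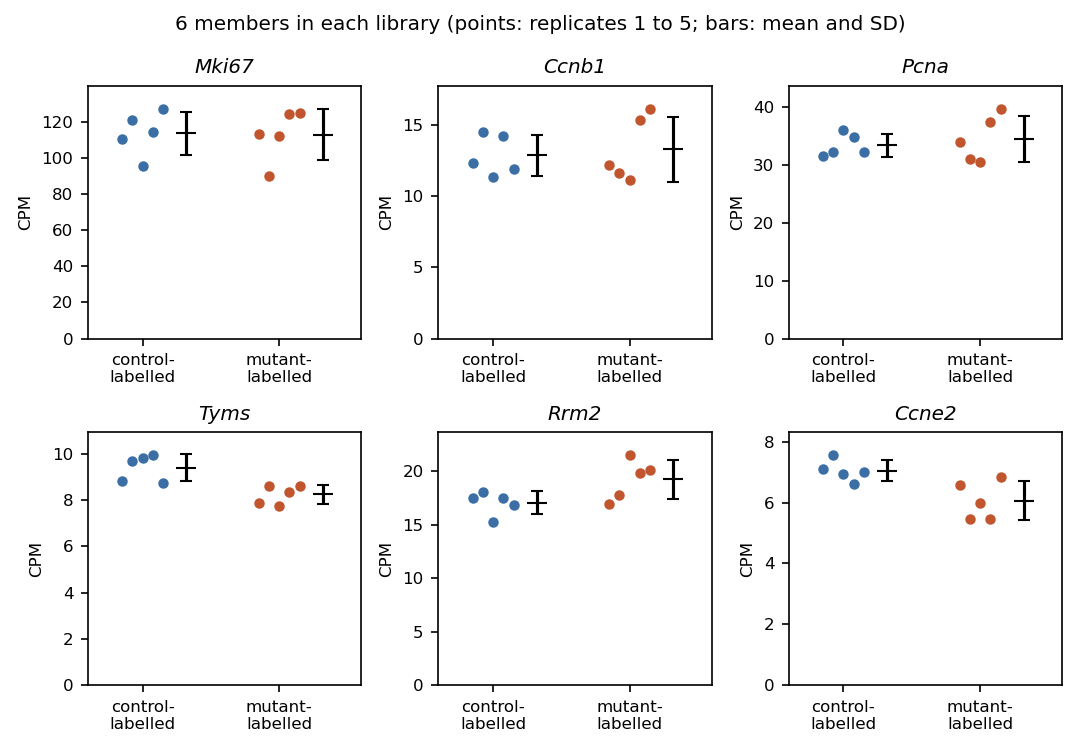
Points are the CPM of 6 members in each of the 5 control-labelled and 5 mutant-labelled libraries, and black marks give the mean and SD of each group. Tyms is the one member whose groups do not overlap (8.75 CPM the lowest control-labelled, 8.63 CPM the highest mutant-labelled value), while the ranges of the 2 groups overlap for the other 5.

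The S-phase and the G2/M members were next compared within each library, by the mean log2 CPM of each list. The S-phase mean was 4.02, 4.16, 3.98, 4.07 and 4.12 in the control-labelled and 4.02, 3.89, 4.12, 4.13 and 4.15 in the mutant-labelled libraries. The G2/M mean was 3.96, 4.13, 3.87, 4.07 and 4.04 against 3.95, 3.78, 3.99, 4.15 and 4.16. The difference in mean log2 CPM, S-phase minus G2/M, was 0.065, 0.031, 0.11, 0.0055 and 0.081 against 0.076, 0.11, 0.13, -0.022 and -0.0086. Libraries high in one list were mostly high in the other, and the mutant-labelled libraries held both the highest and the lowest value of the difference. In group means the difference was 0.059 ± 0.042 and 0.056 ± 0.068 (SD, n = 5 each), so that the groups were -0.0027 apart, less than the spread within either. The list means themselves were -0.0077 apart for S phase and -0.0050 for G2/M. No p is given for these list means, since the lists were drawn up with results of these data known.

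**Figure D4:**
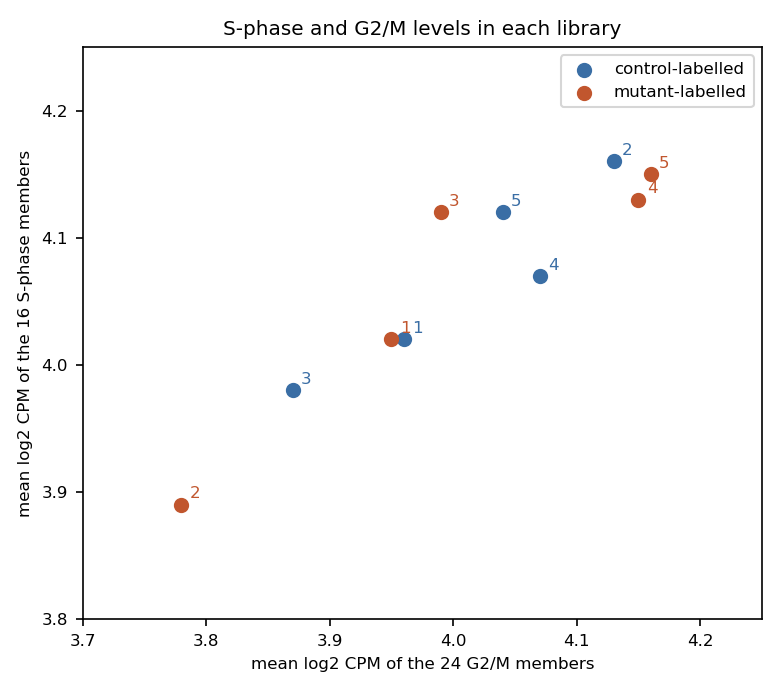
Each point is a library, with the mean log2 CPM of the 24 G2/M members on the x axis and of the 16 S-phase members on the y axis; numbers are replicates. The points of the 2 groups are intermingled, with mutant-labelled replicate 2 lowest on both axes (3.78 and 3.89).

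The lowest S-phase and G2/M means were those of mutant-labelled replicate 2 (3.89 and 3.78), with control-labelled replicate 3 next (3.98 and 3.87). Mutant-labelled replicate 2 was the lowest of all 10 libraries in 21 of the 40 members (52.5%), 8 of S phase and 13 of G2/M, against 14.8% of all genes tested, 32.3% of 65 other mitotic genes and 28.0% of 50 other replication genes. Control-labelled replicate 3 was lowest in 11 members (8.03% of all genes), while the highest value fell to mutant-labelled replicate 5 in 12 members (6.29% of all genes), to mutant-labelled replicate 4 in 11 (11.7%) and to control-labelled replicate 2 in 8 (8.22%). Mutant-labelled replicate 2 was the highest library in 17.9% of all genes and in 0 members. Thus the mutant-labelled group held the library lowest in most members and the 2 libraries most often highest. In mutant-labelled replicate 2 the 6 neuron markers summed to 532 CPM, against 63.1 to 161 CPM in the control-labelled and 65.1 to 212 CPM in the other mutant-labelled libraries, and it was the lowest library in 6 of 10 osteoblast markers. What these have to do with its levels of the members was not tested. Without it, the median log2 fold change was 0.072 over the S-phase and 0.060 over the G2/M members, no member had an adjusted p under 0.05 by edgeR's test, 3 had an unadjusted p under 0.05 (*Rrm2* and *Uhrf1* higher, *Tyms* lower), and the S-phase minus G2/M difference between the groups was -0.015.

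**Figure D5:**
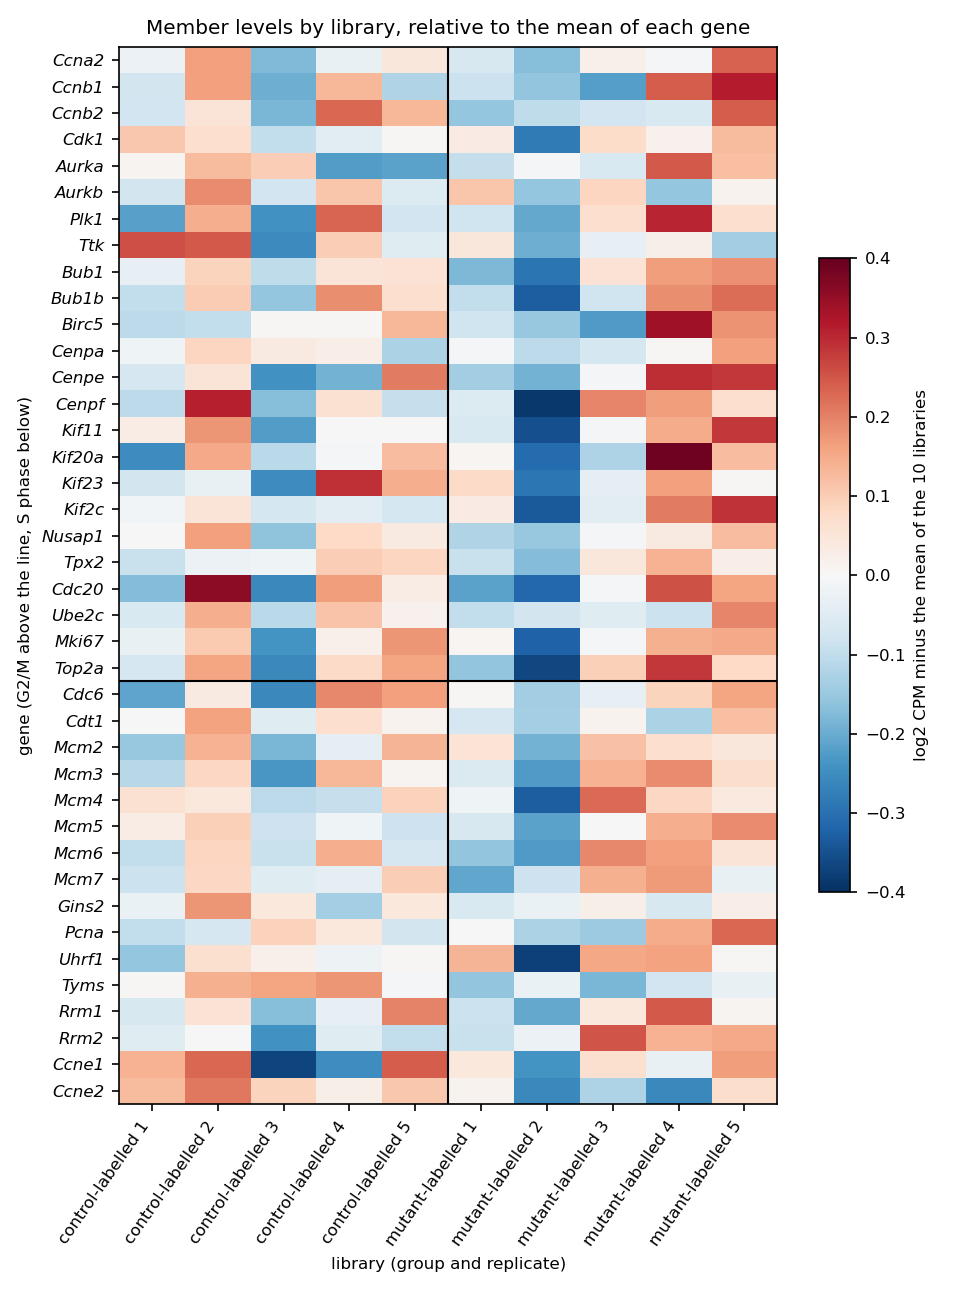
Colours give the log2 CPM of each of the 40 members in each library minus the mean of that member over the 10 libraries. The column of mutant-labelled replicate 2 is low for most members, being the lowest of the 10 in 21 of them, and mutant-labelled replicates 4 and 5 are high for many.

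Markers of the granulocyte lineage and of other cell types in the tissue were summed in each library. Those of the granulocyte lineage summed to 30.1 to 78.6 CPM in the control-labelled and to 84.4 to 147 CPM in the mutant-labelled libraries. Of the 7 tested, 3 were higher at an unadjusted p under 0.05 by edgeR's test, against 3.68% of all genes, namely *S100a8*, *S100a9* and *Ngp*, which are known for later granulocytes. *Mpo*, *Elane* and *Prtn3*, known for their precursors, had log2 fold changes of 0.56, 0.55 and 0.084, with unadjusted p-values of 0.113, 0.455 and 0.774. The remaining marker, *Camp*, had a log2 fold change of 0.81 (unadjusted p = 0.0613 by edgeR's test), and its groups overlapped. All 7 log2 fold changes were above 0 (median 0.81), and the groups did not overlap for *S100a8* and *S100a9*, against 1.48% of all genes. A difference between the later and the precursor markers was not tested. The AF connective tissue markers summed to 148 to 179 against 199 to 278 CPM, with all 4 higher at that level, and 6 of 10 osteoblast markers were lower, against 3.82% of all genes. The sums overlapped for erythroid markers (999.9 to 2528 against 905 to 1603 CPM), macrophage and osteoclast markers (1160.0 to 1788 against 1304 to 1465 CPM), endothelial markers (414 to 527 against 435 to 527 CPM), chondrocyte markers (1320.0 to 1649 against 1221 to 1638 CPM), neural progenitor markers (47.7 to 61.7 against 45.7 to 65.9 CPM) and skeletal muscle markers (11.9 to 632 against 12.9 to 629 CPM). Of the 6 chondrocyte markers *Col2a1* was higher (log2 fold change 0.88, unadjusted p = 0.000950 by edgeR's test), without overlap. None of the markers on these lists had an adjusted p under 0.05 by edgeR's test. Among the lists given here, DESeq2's Wald test gave an adjusted p under 0.05 to 4 of 10 osteoblast markers (lower). It did so for 2 of 4 AF connective tissue markers, 1 of 7 granulocyte markers and 1 of 6 chondrocyte markers (higher). The share over all genes by that test was 0.615% in either direction. Their part in the levels of the mitotic and replication genes was not tested.

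The rest of the cell cycle machinery was read from lists of other genes. Of 65 other mitotic genes, 1 (1.54%) was lower and none higher at an unadjusted p under 0.05, against 3.82% of all genes tested lower and 3.68% higher. The median log2 fold change of these 65 genes was -0.011. Of 50 other replication genes, among them the origin recognition complex and the polymerases, none was higher or lower at that level, with a median of 0.0024. Of 18 tested G1 cyclins, cyclin-dependent kinases and inhibitors 1 (5.56%) was lower, and of 23 transcriptional regulators of the cell cycle 1 (4.35%) was higher, with medians of 0.024 and 0.022. No gene of these lists had an adjusted p under 0.05 by edgeR's test.

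The lower mitotic gene was *Cks1b*, which encodes a small subunit bound to CDKs. It was at 15.2, 16.3, 16.9, 15.7 and 16.1 CPM in the control-labelled and at 13.7, 14.0, 14.5, 14.1 and 15.0 CPM in the mutant-labelled libraries, without overlap. Its log2 fold change was -0.17 (95% interval -0.29 to -0.048; unadjusted p = 0.0107, adjusted p = 0.522, edgeR's test). *Cdkn1a*, for the CDK inhibitor p21, was at 59.4, 64.5, 60.0, 69.8 and 55.4 CPM against 45.5, 45.8, 51.1, 39.7 and 57.0 CPM, so that mutant-labelled replicate 5 alone reached the control-labelled range. Its log2 fold change was -0.37 (-0.58 to -0.17; unadjusted p = 0.00207, adjusted p = 0.348, edgeR's test). DESeq2's Wald test gave *Cdkn1a* an adjusted p of 0.0473, the lowest of its 18 alternatives, of which the highest was 0.756.

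*E2f2*, one of the activating E2F factors, was at 3.30, 3.53, 4.17, 4.41 and 3.63 CPM in the control-labelled and at 5.76, 3.86, 5.91, 4.30 and 4.81 CPM in the mutant-labelled libraries. Mutant-labelled replicates 1, 3 and 5 lay above all control-labelled values. Its log2 fold change was 0.37 (95% interval 0.050 to 0.69; unadjusted p = 0.0270, adjusted p = 0.634, edgeR's test).

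Some members share sequence with other genes, and no source says that reads were counted by strand. Exon bases overlap another gene in 10 members, most in *Gins2* (67.3%, *Gse1*), *Kif20a* (29.3%, *Cdc23*), *Ube2c* (22.8%, *Tnnc2*), *Ccne2* (17.4%), *Mcm7* (12.6%) and *Ccna2* (12.5%). Part of their counts may come from the other gene. These shares of bases do not give that part, and its size was not tested. The counts of 6 members, *Rrm2*, *Pcna*, *Ccnb1*, *Mcm5*, *Mcm7* and *Uhrf1*, were not whole in any library, and pseudogenes of *Ccnb1*, *Ccnb2* and *Pcna* have rows of their own in the table.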

How the data were processed

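Total RNA of 10 AF libraries was made into stranded libraries and sequenced as single reads, per the labels. The authors deposited a single table of estimated counts per gene, unscaled, with 66.4% of values exactly whole and a lowest sum of 10 over the libraries. The submitters' processing notes name Partek and mm10; the aligner, the counting model and the strand setting are not given in the sources used here. Start and end matched GENCODE M21 within 1 base for 22266 of the 22487 symbols found there once.

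The estimated counts were rounded to whole numbers. edgeR 4.0.16 (R 4.3.3) kept 16267 genes by its expression filter and left out 6813, scaled by TMM, and compared 5 mutant-labelled with 5 control-labelled libraries by its quasi-likelihood test with no covariate. The study's methods name no test for the sequencing data. Benjamini-Hochberg adjustment ran over all 16267 genes, with a threshold of 0.05. CPM are TMM-normalized, and log2 CPM used a prior count of 0.5. Intervals are 95% intervals from the unshrunk coefficient and its SE. Fold changes are mutant-labelled minus control-labelled. Exact permutation tests were two-sided. The fitting procedure was tested on simulated data. Totals of 20774667 to 28515434 counts per library gave a biological coefficient of variation of 18.9%. Alternatives used DESeq2 1.42.0, limma 3.58.1 (voom with quality weights), other scalings, filters and thresholds, a replicate block, no ribosomal RNA genes, and each library left out.

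The members and lists were chosen with earlier results of these data known. Values in every library are given for 18 chosen members, for the 5 members of each phase with the smallest p, and for genes of the other lists with an unadjusted p under 0.05, at most 5 a list. Promoter windows are from RefSeq. One list of cell type markers, and what rests on it, is not reported here.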

Additional observations from a re-analysis of the deposited data

Results flagged for a closer look

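The values of each member, the S-phase and G2/M means and the difference of these means were checked, group by group, for a library far from the other 4. The measure was its gap to the nearest value against the whole range (Dixon's 95% critical value). This picked out 4 of 86 sets of 5 values, all of them mutant-labelled, and chance alone picks out about 1 in 20 such sets. Neither the list means nor their difference were picked out. *Cdk1* was at 16.7 CPM in mutant-labelled replicate 2, against 20.6 to 22.2 CPM in the others. *Mcm2* was at 23.9 CPM in the same library, against 28.1 to 29.5 CPM. *Ccnb2* was at 13.7 CPM in mutant-labelled replicate 5, against 10.4 to 11.1 CPM, and *Ube2c* at 14.7 CPM in that library, against 11.98 to 12.4 CPM.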

How the results depend on the processing

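No member had an adjusted p under 0.05 in any alternative run, nor under a threshold of 0.1. The number of all genes past the threshold, 3, was 1 with library size only, 98 with DESeq2's Wald test and 1 with a replicate block, and 1 to 6 with a library left out (6 without mutant-labelled replicate 2, 1 without control-labelled replicates 3, 4 or 5 or mutant-labelled replicates 1, 3, 4 or 5). The number of members at an unadjusted p under 0.05, 3, was 1 with library size only, 1 with DESeq2's Wald test and 0 with a replicate block. With a library left out it was 0 to 3: 0 without control-labelled or mutant-labelled replicate 3, and 1 without control-labelled replicates 2, 4 or 5 or mutant-labelled replicate 4. The causes were not tested. With a library left out, the median log2 fold change was -0.0083 to 0.072 for S-phase and -0.043 to 0.060 for G2/M members, and the S-phase minus G2/M difference between the groups was -0.021 to 0.017.

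Same-numbered libraries had correlations of -0.211 to 0.139 between their deviations from the group mean (5 pairs). Those of differently numbered libraries were -0.414 to 0.333 (20 pairs). So few pairs cannot decide whether equal replicate numbers mark littermates. In the replicate block fit the sign turned for *Mcm7* (-0.0027).

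Signs of values this small depended on the processing. With library size only, which moved the median of all genes to -0.038, the log2 fold change turned to Ccna2 -0.037, Kif11 -0.029, Cdc6 -0.021, Mcm2 -0.011, Mcm4 -0.038, Mcm5 -0.010, Mcm6 -0.024, Mcm7 -0.034 and Rrm1 -0.034. With limma voom it turned to Cdk1 0.029, Bub1 0.015, Bub1b 0.0044, Cenpa 0.017, Cenpf 0.047, Mki67 0.041, Top2a 0.018 and Ccne1 0.052. With DESeq2 size factors it turned to Cenpa 0.0064, Cenpf 0.0071 and Mki67 0.00087, and with DESeq2's Wald test to Cenpa 0.0050, Cenpf 0.0073 and Mki67 0.00085. With at least 10 counts in every library it turned to Cdk1 4.2e-05, Cenpa 0.0069, Cenpf 0.0069 and Mki67 0.0013, and without ribosomal RNA genes to Cenpa 0.0024 and Cenpf 0.0027. With a library left out, 26 of 40 members turned sign at least once, with ranges for Aurkb (-0.061 to 0.013), Birc5 (-0.044 to 0.10), Bub1 (-0.066 to 0.053), Bub1b (-0.095 to 0.048), Ccna2 (-0.052 to 0.064), Ccnb1 (-0.031 to 0.11), Ccne1 (-0.090 to 0.050), Cdc20 (-0.12 to 0.049), Cdc6 (-0.023 to 0.076), Cdk1 (-0.041 to 0.061), Cenpa (-0.045 to 0.029), Cenpf (-0.041 to 0.094), Gins2 (-0.081 to 0.0059), Kif11 (-0.058 to 0.10), Kif20a (-0.050 to 0.13), Kif23 (-0.093 to 0.034), Mcm4 (-0.041 to 0.090), Mcm5 (-0.017 to 0.088), Mcm6 (-0.023 to 0.077), Mcm7 (-0.033 to 0.060), Mki67 (-0.054 to 0.071), Pcna (-0.0076 to 0.10), Plk1 (-0.0050 to 0.13), Rrm1 (-0.052 to 0.065), Top2a (-0.089 to 0.068) and Tpx2 (-0.049 to 0.027). In all, 13 of 40 members kept one sign in every setting. Depth, at 81 or more counts per member and library, and 5 libraries a group limit the smallest change that could be detected.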
